A study of Saccharomyces cerevisiae BY4741 with 40 samples.

Results

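The 10 genes described here code for the histones of budding yeast (*Saccharomyces cerevisiae*). They are the 4 gene pairs of the core histones, *HTA1* and *HTA2* for H2A, *HTB1* and *HTB2* for H2B, *HHT1* and *HHT2* for H3 and *HHF1* and *HHF2* for H4, the gene of the H2A variant H2A.Z (*HTZ1*) and the gene of the linker histone H1 (*HHO1*). They were taken by name. Every transcription start site cluster (TSSC) annotated to one of them was used, which gave 18 of 17812 TSSCs in the *RRP6* experiment and 16 of 21707 in the *SET2* experiment. All 10 genes had at least 1 TSSC assigned to their mRNA in each experiment, among 5231 and 5234 genes with such a cluster. A TSSC is a group of neighbouring RNA 5′-ends, sequenced after the cap had been removed and replaced by an oligonucleotide.

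Each experiment had 12 libraries, 3 for each of 4 genotypes. All strains were BY4741 carrying a *can1* deletion, and for the wild-type strain the labels name no further deletion. In the *RRP6* experiment the mutants were *upf1∆* (upf1::KANMX6), *rrp6∆* (rrp6::hphMX6) and *upf1∆rrp6∆* (upf1::KANMX6 with rrp6::HPHMX6). In the *SET2* experiment they were *upf1∆* (upf1::KANMX6), *set2∆* (set2::KANMX6) and *upf1∆set2∆* (set2::KANMX6 with upf1::HIS3MX6). Cells were grown in rich medium to mid-exponential phase. The deposited value of a TSSC is 1 normalised number of 5′-end reads for each genotype and experiment, so the spread between the 3 libraries cannot be seen and no test between genotypes could be made from these values. Where 4 values follow each other below, they belong to wild-type cells, the *upf1∆* single mutant, the *rrp6∆* or *set2∆* single mutant and then the double mutant. The labels do not say whether the libraries of a genotype came from separate cultures (the study calls them biological replicates), and the libraries of wild-type, *rrp6∆*, *set2∆* and *upf1∆rrp6∆* cells carry more than 1 strain reference within a genotype. For some of these strains the study's own strain list gives the *upf1* deletion another marker (HIS3MX6) than the labels, which are followed here.

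Core histone genes lie in divergent pairs that share a promoter, and their transcription is confined largely to S phase. It is driven by Spt10, which binds the histone promoters, with SBF and MBF. At most of the pairs, but not all, it is held back outside S phase by the HIR complex. Yeast histone mRNAs are polyadenylated, unlike most histone mRNAs of animals. Upf1 is needed for nonsense-mediated mRNA decay (NMD), which destroys cytoplasmic mRNAs whose first open reading frame ends early. Rrp6 is a 3′ to 5′ exonuclease of the nuclear exosome, and earlier yeast work has tied it, with the Trf4 and Trf5 poly(A) polymerases, to the turnover of histone mRNAs. Set2 methylates lysine 36 of histone H3 over transcribed genes, and its loss uncovers start sites inside genes.

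The shared promoters are shown first because their genes are compared in pairs below. The start codons of *HTB1* and *HTA1* on chromosome IV were 817 nt apart, counted between the ORFs. The distance was 699 nt between *HTA2* and *HTB2* and 646 nt between *HHF1* and *HHT1*, both on chromosome II, and 676 nt between *HHT2* and *HHF2* on chromosome XIV. All 4 held the motif that Spt10 recognises, searched on both strands as A or G, then TTCC, 6 bases, TTC, any base and C. *HTB1*-*HTA1* held 2 matches, facing each other, and the other 3 promoters held 1 each. These are the matches (capitals) with 7 bases on either side, from RefSeq R64, + strand.
HTB1-HTA1, chrIV:915106-915159: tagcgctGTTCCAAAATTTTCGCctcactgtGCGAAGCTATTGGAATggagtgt
HTA2-HTB2, chrII:236101-236130: tcactttGAGAAATAATGGGAACaccttac
HHF1-HHT1, chrII:255937-255966: ttatgggGAGAAGCGCTCGGAACagtttta
HHT2-HHF2, chrXIV:576339-576368: gcttaatGCGAAGTGCTCGGAACggacaac

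For each gene, the 300 bases upstream of its mRNA-TSSC with the highest wild-type value (its leading TSSC) were searched in the same way for all 5231 genes of the *RRP6* experiment. The Spt10 motif stood in the windows of 5 histone genes (*HTA1*, *HTA2*, *HTB2*, *HHT2* and *HHF1*) and in 0.803% of all windows. The windows of *HTZ1* and *HHO1* held no match. The MBF word ACGCGT stood in the windows of *HTA2* and *HTB2*, at the same site, and in 4.15% of all windows. The SBF words CGCGAAA or CACGAAA stood in those of *HTB1*, *HHF2*, *HTZ1* and *HHO1*, and in 10.0% of all. A TATA word (TATAAAA, with TATAAAT, with TATATAA or with TATATAT, whose matches on the 2 strands overlap) stood in 7 windows and in 51.7% of all. *HHF1*, *HTZ1* and *HHO1* had none.

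A TATA word lay within 100 bases upstream of the leading TSSC of *HTA1*, *HTB1*, *HTB2*, *HHT1*, *HHT2* and *HHF2* in both tables. In 5 of these the first base of the farthest word stood 70 to 89 or, in *HTB1*, 97 bases before the cluster, and *HTB2* had it at 71 or 76 bases, depending on the table. The wide clusters of *HTA2* and *HHF1* in the *RRP6* experiment instead had no such word upstream and ran across one: it began 11 bases (*HTA2*) and 64 bases (*HHF1*) after the first base of the cluster. In the *SET2* table the *HTA2* cluster was called shorter, and the same words lay up to 89 bases upstream of it. The 100 bases that end just before the leading TSSC are printed for 4 genes with TATA words upstream of the cluster (*HHT1* has further ones inside it), from RefSeq R64, on the strand of the gene, with TATA words in capitals.
HTA1, chrIV:915330-915429, + strand: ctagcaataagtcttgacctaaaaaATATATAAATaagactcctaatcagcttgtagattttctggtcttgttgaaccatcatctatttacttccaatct
HHT1, chrII:256191-256290, + strand: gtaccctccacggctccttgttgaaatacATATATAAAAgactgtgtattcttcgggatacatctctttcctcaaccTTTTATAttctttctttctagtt
HHT2, chrXIV:576097-576196, - strand: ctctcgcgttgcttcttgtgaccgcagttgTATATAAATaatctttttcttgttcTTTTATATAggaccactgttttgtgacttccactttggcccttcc
HHF2, chrXIV:576585-576684, + strand: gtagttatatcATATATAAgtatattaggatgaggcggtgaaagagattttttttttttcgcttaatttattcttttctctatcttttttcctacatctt

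For *HTA2*, 30 bases inside the wide cluster are shown because a TATA word there is followed a few bases later by an ATG (capitals), the first one that transcripts starting ahead of it would carry. It lies at -181 nt from the start codon, with a frame of 46 codons that is not that of the histone.
HTA2, chrII:235954-235983, - strand: tatataagggATGaagatgtatgctttctt

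The leading TSSCs differed in width. In the *RRP6* experiment those of *HTB1* (14 nt), *HHF2* (25 nt), *HTA1* (29 nt), *HHT1* (34 nt) and *HHT2* (35 nt) were narrow. *HTZ1* had 47 nt and *HHO1* 79 nt. Those of *HTB2* (122 nt), *HHF1* (151 nt) and *HTA2* (185 nt) were wide. Clusters were called anew for the *SET2* experiment, where *HHF1* had 112 nt and *HTA2* 85 nt, so the values of *HTA2* cover different stretches in the 2 experiments. Leaders, counted from the cluster to the start codon, were as short as 7 nt for *HHT1* and 3 nt for *HHO1* and no longer than 204 nt (*HTA2*). Read from its last base, no leading cluster was followed by an ATG ahead of the start codon. Read from its first base, *HTA2* had 6 in the *RRP6* table, *HHF1* 3, *HTB2* 2 and *HHO1* 2, and the narrow clusters and *HTZ1* had none. The tables hold no read positions within a cluster.

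**Figure D1:**
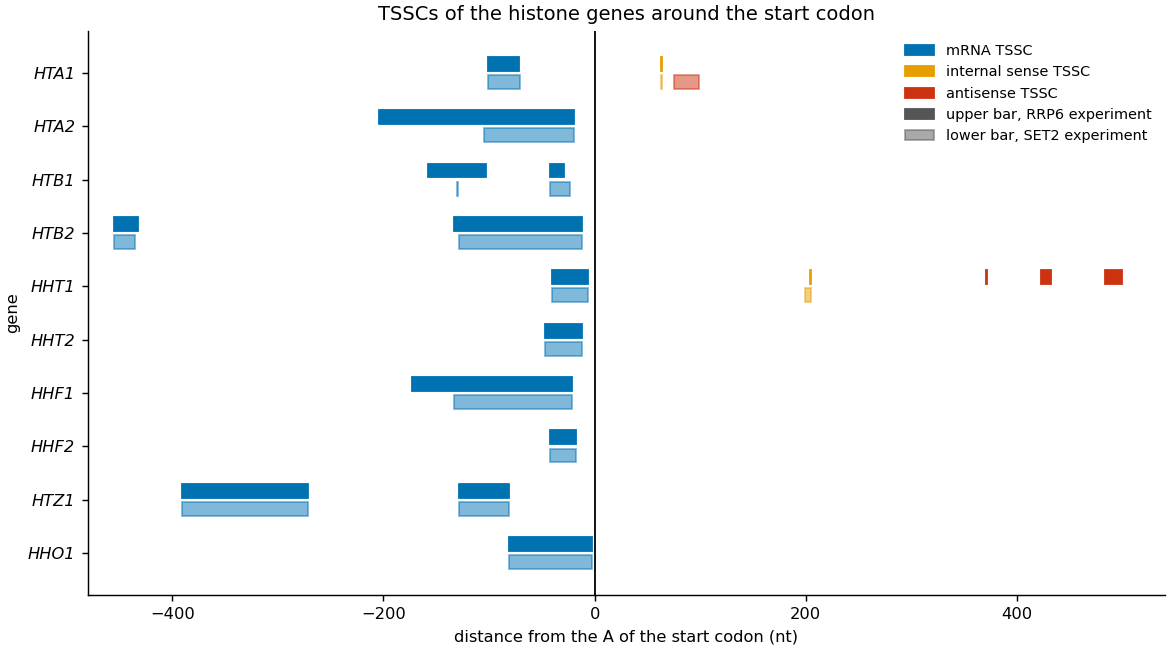
Position of each TSSC of the 10 histone genes relative to the A of its start codon (x axis, nt), with mRNA-TSSCs in blue, sense TSSCs inside the gene in orange and antisense TSSCs in red; the upper bar of a gene is the *RRP6* experiment and the paler lower bar the *SET2* experiment. *HTB1*, *HTB2* and *HTZ1* have a second mRNA-TSSC further upstream, and the leading clusters of *HTB2*, *HHF1* and *HTA2* are the widest.

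Histone mRNAs were among the more abundant of the cell. Each RNA gives a single 5′-end whatever its length, so levels can be compared between genes without a length correction. The study made its libraries from poly(A)+ RNA, so the values count capped RNA that was selected by its poly(A) tail. Whether this selection differed between genes or genotypes was not tested. In wild-type cells of the *RRP6* experiment, the normalised 5′-end reads of the leading TSSC were 7281 for *HHT2*, 7200 for *HTA2*, 3455 for *HHF2*, 2857 for *HHT1*, 2378 for *HTB2*, 2157 for *HTB1*, 1863 for *HTA1* and 1851 for *HHF1*. *HHO1* followed with 783 and *HTZ1* with 529. The leading TSSC of *HTZ1* lay above 78.6% and that of *HHT2* above 98.1% of the 5927 mRNA-TSSCs. Between wild-type values of the 2 experiments, over 1512 mRNA-TSSCs with a value of 400 to 10000, the log2 difference had an SD of 0.35, which is taken as the error of a level. The order was the same in the *SET2* experiment except that *HTB1* stood before *HTB2*. Of the steps in this order, only those from *HTA2* to *HHF2*, from *HHF1* to *HHO1* and from *HHO1* to *HTZ1* were larger than this in both experiments. The step from *HHT2* to *HTA2* was smaller in the *RRP6* experiment (log2 0.02) and larger in the *SET2* experiment (log2 0.68). The other neighbours did not differ beyond this spread.

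**Figure D2:**
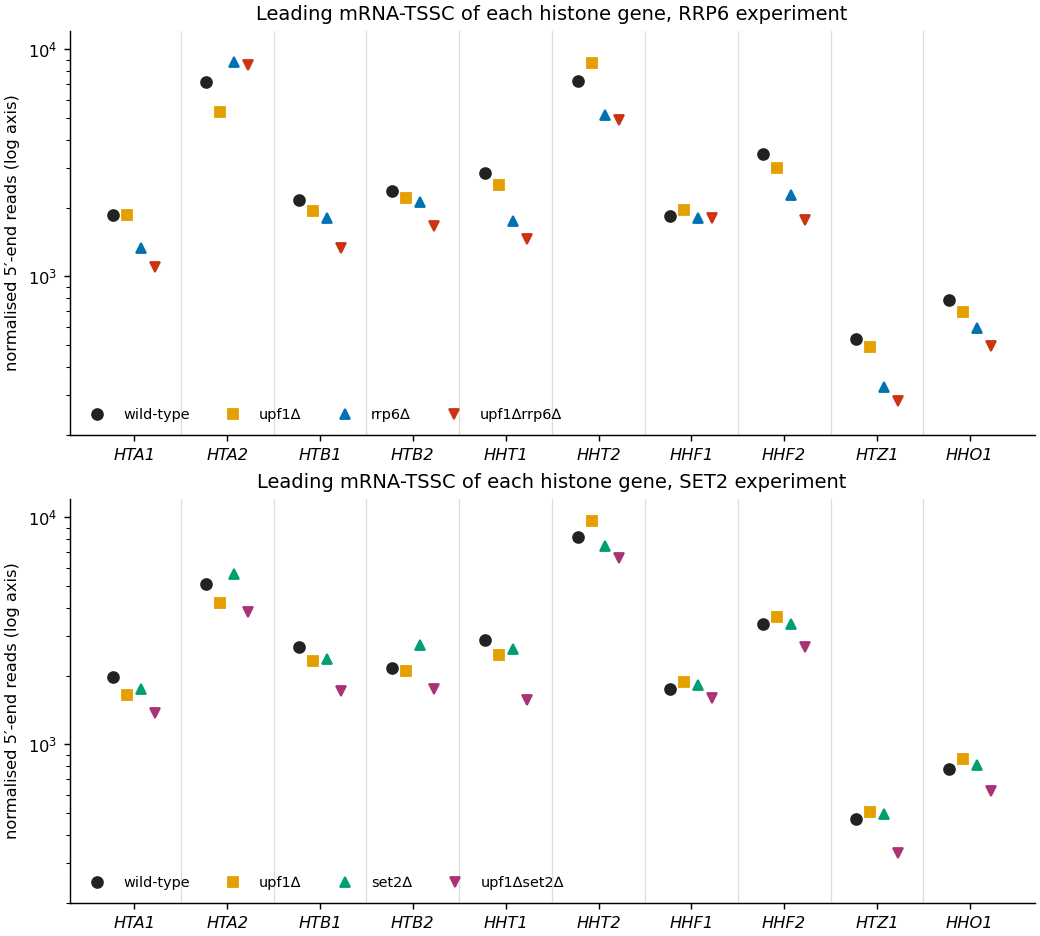
Normalised 5′-end reads (y axis, log scale) of the leading mRNA-TSSC of each histone gene, 1 deposited value per genotype, with no error bars because the values are pooled. In the *RRP6* experiment (top) 7 of the 8 core genes have less in *upf1∆rrp6∆* than in wild-type cells and *HTA2* has more; in the *SET2* experiment (bottom) the *upf1∆set2∆* value is below wild-type for all 8.

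The error of a ratio was taken from the only comparison made in both experiments, *upf1∆* over wild-type. Ratios are given as log2((value + 1)/(value + 1)). Over the same 1512 clusters the log2 ratios of the 2 experiments differed with an SD of 0.13, and 95% of the differences lay within 0.25 of their median. The SD was 0.20 for wild-type values of 50 to 400 and 0.42 under 50. Some histone genes differed by more than this SD. *HHO1* differed by 0.32 (-0.17 and 0.15), *HHF2* by 0.30 (-0.21 and 0.10) and *HTA1* by 0.26 (0.00 and -0.26) between the experiments. *HTZ1* (-0.12 and 0.10) and *HTA2* (-0.44 and -0.28) also differed by more than the SD. The *rrp6∆*, *set2∆* and double mutant values were measured in 1 experiment each. A cluster was counted as higher or lower past 1.5-fold. For the deleted genes, the mRNA-TSSC of *RRP6* had 86 in wild-type and 2 in *rrp6∆* cells, and that of *SET2* had 40 in wild-type and 6 in *set2∆* cells. The mRNA-TSSC of *NAM7*, the gene of Upf1, was not lost in cells labelled *upf1∆*. It had 220, 176, 280 and 349 in the *RRP6* experiment and 111, 165, 110 and 101 in the *SET2* experiment, lower in some genotypes without Upf1 and higher in others. Why this signal remained was not tested, and it does not check that deletion.

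Loss of Upf1 alone left the leading histone TSSCs near wild-type. The 8 core genes of the *RRP6* experiment had a median log2 ratio of -0.13, from -0.44 for *HTA2* to 0.26 for *HHT2*. The *SET2* experiment gave -0.13 again, from -0.28 for *HTA2* to 0.25 for *HHT2*. Over all mRNA-TSSCs the medians were 0.07 and 0.12. Over those with a wild-type value of at least 500 they were -0.05 (quartiles -0.20 and 0.13) and 0.05 (quartiles -0.12 and 0.21). The core median was thus within these quartiles in the *RRP6* experiment and just below the lower one in the *SET2* experiment. The H3 gene *HHT2* had 7281 in wild-type and 8728 in *upf1∆* cells of the first experiment, and 8151 and 9668 in the second. *HTA2* had 7200 and 5309, then 5088 and 4189. *HHT2* was thus higher and *HTA2* lower in both. Of the 13 histone mRNA-TSSCs in each experiment, none was lower past 1.5-fold, against 3.69% and 4.49% of all mRNA-TSSCs. The number higher past 1.5-fold was 1 and then 2, against 21.7% and 23.1% of all. These were upstream clusters of *HTZ1* and *HTB2*.

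In *rrp6∆* cells 9 of the 10 leading histone clusters had lower values than in wild-type cells, as deposited. The 8 core genes had a median log2 ratio of *rrp6∆* over wild-type of -0.37. Over all 5927 mRNA-TSSCs the median was 0.04 with quartiles at -0.25 and 0.33, and over the 1330 with a wild-type value of at least 500 it was -0.18 with quartiles at -0.43 and 0.06. *HHT1* had 2857 in wild-type and 1755 in *rrp6∆* cells (log2 -0.70), *HHF2* 3455 and 2281 (-0.60), *HHT2* 7281 and 5142 (-0.50) and *HTA1* 1863 and 1330 (-0.49). *HTB1* with 2157 and 1800 (-0.26), *HTB2* with 2378 and 2134 (-0.16) and *HHF1* with 1851 and 1811 (-0.03) were within the quartiles of clusters of this level. The H2A gene *HTA2* lay on the other side, with 7200 in wild-type and 8816 in *rrp6∆* cells (0.29). Of the single genes, *HTZ1* had 529 and 324 (-0.71) and *HHO1* had 783 and 589 (-0.41). Of the 13 histone mRNA-TSSCs 4 were lower past 1.5-fold, against 9.85% of all, and 0 were higher, against 12.0%. Among the 4 was the upstream cluster of *HTB2*, at 23 and 12. With the median of mRNA-TSSCs of at least 500 set to 0, the core median was -0.19, and *HTB2* (0.03) and *HHF1* (0.15) were above wild-type. Under this scaling 1 cluster was lower past 1.5-fold, and the share of all was not recomputed.

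In the *upf1∆rrp6∆* double mutant 7 of the 8 core genes were below wild-type. The core median against wild-type was -0.64, beside 0.28 over all mRNA-TSSCs (quartiles -0.11 and 0.77) and -0.15 over those with a wild-type value of at least 500 (quartiles -0.44 and 0.15). *HHT1* had 2857, 2516, 1755 and 1456, which is a log2 ratio of -0.97 for the double mutant over wild-type. *HHF2*, the H4 gene of the other H3-H4 pair, had 3455, 2990, 2281 and 1762 (-0.97). *HTA1* had 1863, 1863, 1330 and 1103 (-0.76). In these 3 genes the double mutant was the lowest of the 4 genotypes and *rrp6∆* the next.

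*HTB1* had 2157, 1936, 1800 and 1328 (-0.70 for the double mutant over wild-type), and *HTB2* had 2378, 2217, 2134 and 1664 (-0.51). *HHT2* had 7281, 8728, 5142 and 4892 (-0.57), so that most of its difference was already there in *rrp6∆* cells. *HHF1* had 1851, 1950, 1811 and 1800 (-0.04), nearly the same in all 4 genotypes. *HTA2* had 7200, 5309, 8816 and 8511 (0.24), the only core gene above wild-type in *upf1∆rrp6∆* cells as deposited. These 2 directions depend on the scaling: with the median of all mRNA-TSSCs at 0 *HTA2* was at -0.04, and with that of mRNA-TSSCs of at least 500 at 0 *HHF1* was at 0.11. H2A.Z and H1 resembled the lower group: *HTZ1* had 529, 488, 324 and 281 (-0.91) and *HHO1* had 783, 697, 589 and 492 (-0.67).

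By the 1.5-fold rule, 6 of the 13 histone mRNA-TSSCs were lower in *upf1∆rrp6∆* than in wild-type cells, against 8.22% of all. They were the leading clusters of *HTA1*, *HTB1*, *HHT1*, *HHF2*, *HTZ1* and *HHO1*. One was higher, against 32.3% of all, and it was the upstream cluster of *HTZ1*. Against *upf1∆*, 6 were lower (8.54% of all) and 1 was higher (17.6% of all). The higher one was *HTA2*, at a log2 ratio of 0.68. Against *rrp6∆*, 0 were lower (1.94% of all) and 1 was higher (24.0% of all), and the core median was -0.27, from -0.44 for *HTB1* to -0.01 for *HHF1*. The comparisons of this experiment share their wild-type and double mutant libraries.

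**Figure D3:**
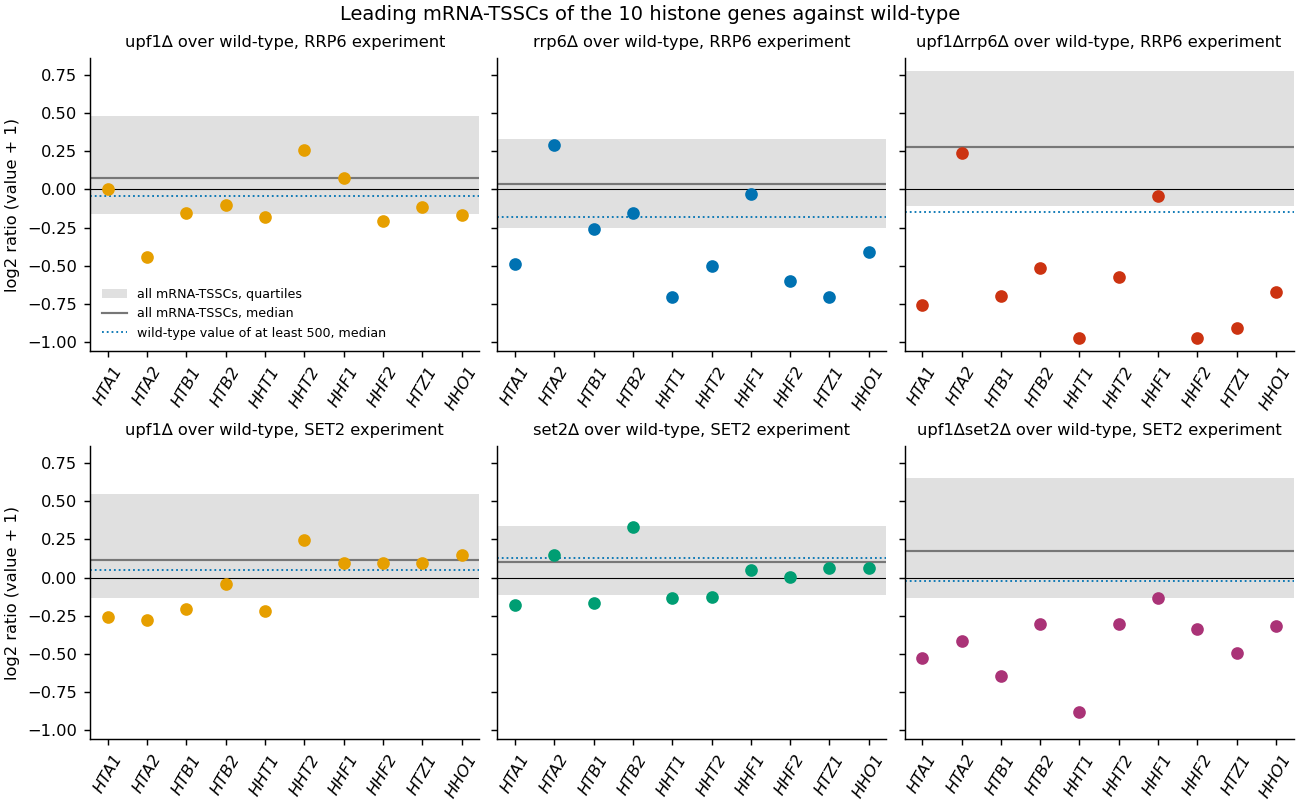
Log2 ratio to wild-type (y axis) of the leading mRNA-TSSC of each histone gene in the 3 mutants of each experiment, with the quartiles (grey band) and median (grey line) of all mRNA-TSSCs and the median of those with a wild-type value of at least 500 (dotted). In *upf1∆rrp6∆* cells 8 of the 10 genes lie below the grey band, with *HHT1* and *HHF2* at -0.97; in *set2∆* cells all 10 lie between -0.18 and 0.33.

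The core genes with the 2 widest leading clusters, *HTA2* and *HHF1*, stood apart in *upf1∆rrp6∆* cells. The 5 genes with a narrow leading cluster had log2 ratios of -0.97 to -0.57, and the 3 with a wide one had -0.51 (*HTB2*), -0.04 (*HHF1*) and 0.24 (*HTA2*), of which *HTB2* was within the error of the narrow *HHT2* (-0.57). Among all mRNA-TSSCs with a wild-type value of at least 1000, the median ratio was -0.33 for the 284 clusters up to 50 nt wide and -0.16 for the 112 over 100 nt, with quartiles at -0.60 and -0.06 and at -0.39 and 0.14. This grouping of the core genes was noticed in the data and is a description without a test. In *upf1∆set2∆* cells the wide cluster of *HHF1* again had the ratio nearest to 0 (-0.13), while *HTA2*, at 85 nt there, had -0.42, and the wide *HTB2* (117 nt) had -0.30, like the narrow *HHT2* (-0.31) and *HHF2* (-0.34).

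Without Set2 alone the histone values stayed close to wild-type. The core median of *set2∆* over wild-type was -0.06, from -0.18 for *HTA1* to 0.33 for *HTB2*, beside 0.10 over all mRNA-TSSCs. Over those with a wild-type value of at least 500 the median was 0.13 with quartiles at -0.03 and 0.28, so that the core median lay below the lower one. With this median set to 0 the core median was -0.19, as in *rrp6∆* cells. *HTB2* had 2170 in wild-type and 2734 in *set2∆* cells, and *HTA2* had 5088 and 5637. *HTZ1* with 470 and 491 and *HHO1* with 777 and 812 were close to wild-type. Of the 13 histone mRNA-TSSCs 0 were lower past 1.5-fold, against 5.13% of all, and 0 higher, against 11.4%.

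In *upf1∆set2∆* cells all 10 leading TSSCs were below wild-type. The core median was -0.38, beside 0.17 over all 5989 mRNA-TSSCs (quartiles -0.13 and 0.65) and -0.02 over the 1106 with a wild-type value of at least 500 (quartiles -0.24 and 0.21). *HHT1* again had the lowest ratio. Its values were 2876, 2470, 2620 and 1560 (log2 -0.88). *HTB1* had 2677, 2320, 2380 and 1710 (-0.65) and *HTA1* 1974, 1650, 1746 and 1369 (-0.53). For all 3, both single mutants lay between wild-type and the double mutant.

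*HTA2* had 5088, 4189, 5637 and 3808 (-0.42), so here it was lower in the double mutant like its pair gene *HTA1*. *HHT2* had 8151, 9668, 7476 and 6589 (-0.31), *HHF2* had 3387, 3621, 3400 and 2676 (-0.34), and *HTB2* had 2170, 2103, 2734 and 1759 (-0.30). *HHF1* had 1758, 1875, 1822 and 1603 (-0.13). In each of these genes, *HTA2* included, the double mutant had the lowest value. *HTZ1* had 470, 503, 491 and 333 (-0.50) and *HHO1* 777, 861, 812 and 624 (-0.32), again with the double mutant lowest.

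The 1.5-fold rule took few of them. In *upf1∆set2∆* over wild-type 2 of 13 were lower (*HTB1* and *HHT1*), against 5.46% of all, and 1 was higher, against 26.9%. Over *set2∆* 2 were lower (*HHT1* and *HTB2*), against 4.51%, and 1 was higher, against 20.9%. Over *upf1∆* 2 were lower (*HHT1* and *HTZ1*), against 8.78%, and 0 were higher, against 10.7%. The higher one in both cases was the upstream cluster of *HTZ1*. *HHT1* was the one leading cluster past the limit in all 3.

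The double mutants were also set against the sum of the single log2 ratios. In *upf1∆set2∆* cells the value was below the sum for 8 of 8 core genes, with a median of -0.36, from -0.59 for *HTB2* to -0.09 for *HTA1*. Over mRNA-TSSCs with a wild-type value of at least 500 the median was -0.20, with quartiles at -0.37 and -0.01. In *upf1∆rrp6∆* cells it was below the sum for 7 of 8, with a median of -0.21 beside 0.06 (quartiles -0.10 and 0.23). *HTA2* was the exception at 0.39. No spread between libraries is held for these sums.

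Genes expressed at the start of S phase were looked at beside the histones, because histone transcription follows the cell cycle. The list of 12 genes (among them *CLN1*, *CLN2*, *RNR1*, *POL30* and *TOS4*) was added after the histone values were known, and 11 had an mRNA-TSSC. Their median log2 ratio was -0.31 and -0.26 in *upf1∆* cells of the 2 experiments, 0.11 in *rrp6∆*, 0.00 in *set2∆*, -0.35 in *upf1∆rrp6∆* and -0.66 in *upf1∆set2∆* cells, always over wild-type. Past 1.5-fold, 6 of the 11 were lower in *upf1∆set2∆* (5.46% of all mRNA-TSSCs), 2 in *upf1∆rrp6∆* (8.22% of all) and 0 in *rrp6∆* cells (9.85% of all). The part of the cell cycle in the histone values was not tested. In a bulk culture fewer cells in S phase and less histone mRNA per cell cannot be told apart.

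Summed over each gene pair, the 4 core histones differed in the *RRP6* experiment. The H3 pair of the *RRP6* experiment had 10138, 11244, 6897 and 6348. The H4 pair had 5306, 4940, 4092 and 3562, and the H2B pair 4535, 4153, 3934 and 2992. These 3 sums were lower in *upf1∆rrp6∆* than in wild-type cells by log2 ratios of -0.68, -0.57 and -0.60. The H2A pair had 9063, 7172, 10146 and 9614, a ratio of 0.09. The H2A sum was 2.00 times the H2B sum in wild-type and 3.21 times in *upf1∆rrp6∆* cells. The other experiment had 1.46 times in wild-type and 1.49 times in *upf1∆set2∆* cells. There the ratios of the double mutant to wild-type were -0.45 for H2A, -0.48 for H2B, -0.44 for H3 and -0.27 for H4.

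**Figure D4:**
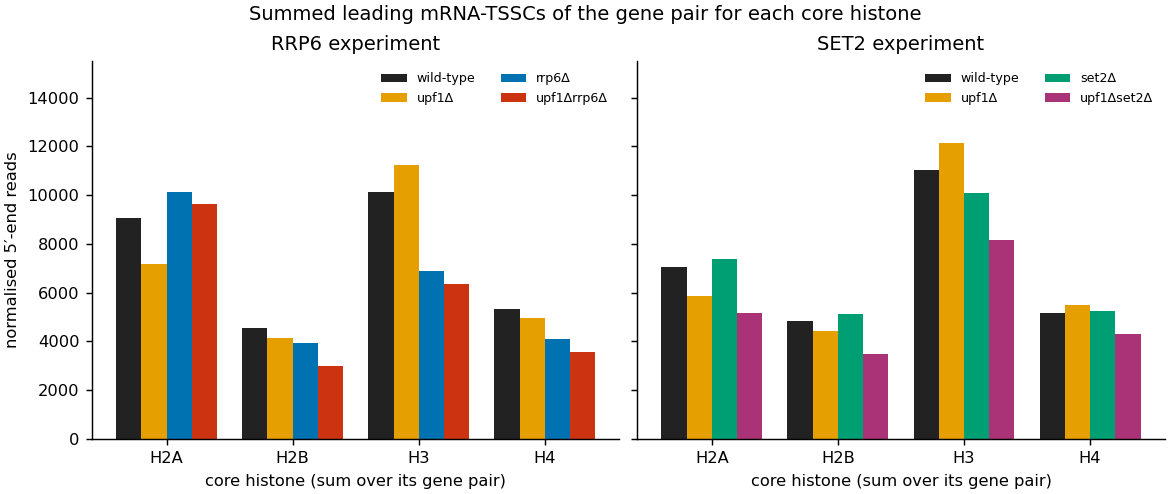
Sum of the leading mRNA-TSSCs of the 2 genes of each core histone (y axis, normalised 5′-end reads, from 0) in the 4 genotypes of each experiment, 1 pooled value each. The H2B, H3 and H4 sums are lower in *upf1∆rrp6∆* than in wild-type cells and the H2A sum (9614 against 9063) is not; all 4 are lower in *upf1∆set2∆* cells.

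The shares of the copies within a pair differed between genotypes. *HTA1* gave 20.6% of the H2A sum in wild-type and 11.5% in *upf1∆rrp6∆* cells, and *HHF1* gave 34.9% of the H4 sum in wild-type and 50.5% in *upf1∆rrp6∆* cells. The share of *HTB1* in the H2B sum was 47.6% and 44.4%. That of *HHT1* in the H3 sum was 28.2% in wild-type, 22.4% in *upf1∆* and 22.9% in *upf1∆rrp6∆* cells, and in the other experiment 26.1%, 20.3% and 19.1% in wild-type, *upf1∆* and *upf1∆set2∆* cells. The lower share of *HHT1* in *upf1∆* cells was thus present in both experiments. For the other pairs the *SET2* experiment gave, in wild-type and *upf1∆set2∆* cells, 28.0% and 26.4% for *HTA1*, 34.2% and 37.5% for *HHF1* and 55.2% and 49.3% for *HTB1*. The wild-type share of *HTA1* itself thus differed between the experiments, where the clusters of *HTA2* and *HHF1* were called at different widths.

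*HTZ1*, *HTB1* and *HTB2* each had a further mRNA-TSSC upstream of the leading one. That of *HTZ1* was the only histone cluster with an mRNA that was higher past 1.5-fold in *upf1∆* cells of both experiments. It lay 390 to 272 nt before the start codon (chrXV:304255-304373, minus strand) in both tables. Its values were 54, 99, 70 and 109 in the *RRP6* experiment and 36, 67, 43 and 73 in the *SET2* experiment. The log2 ratios of *upf1∆* over wild-type were 0.86 and 0.88. The leading cluster of the gene, 128 to 82 nt before the start codon, had -0.12 and 0.10 in the same comparison. With the leading cluster lower and the upstream one higher in both double mutants, the upstream share of *HTZ1* was 9.26%, 16.9%, 17.8% and 27.9% in the *RRP6* experiment. It was 7.11%, 11.8%, 8.05% and 18.0% in the *SET2* experiment. Both double mutants thus had the highest share.

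**Figure D5:**
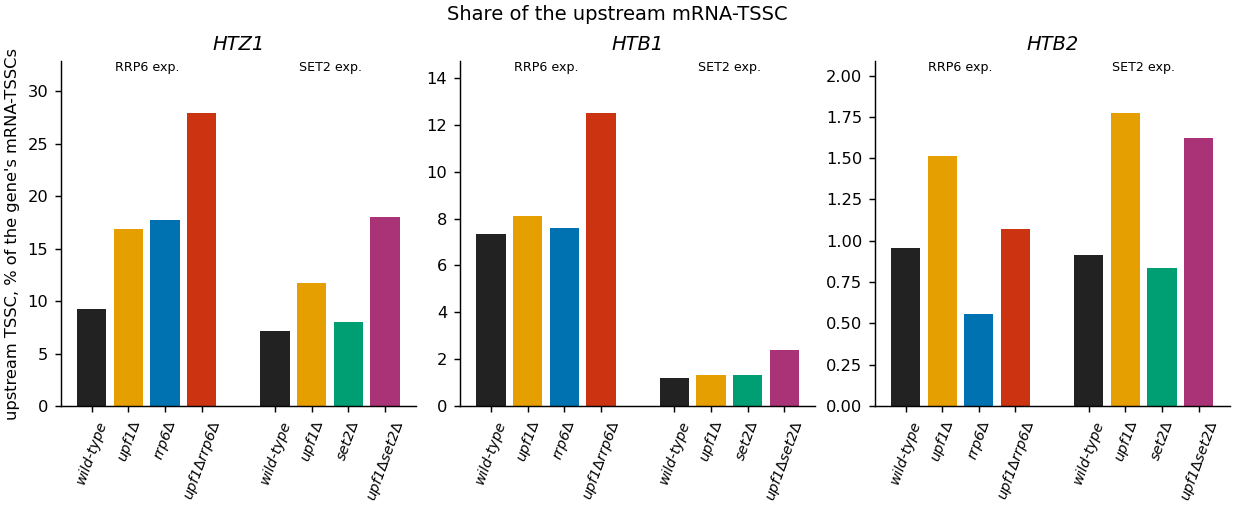
Share of the upstream mRNA-TSSC in the sum of both mRNA-TSSCs of *HTZ1*, *HTB1* and *HTB2* (y axis, %, separate scales from 0) by genotype and experiment, 1 pooled value per bar. For *HTZ1* the share is highest in the double mutants, 27.9% and 18.0%, against 9.26% and 7.11% in wild-type cells.

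The upstream clusters of these genes can give leaders with ATGs ahead of the start codon, a feature NMD is known to act on. In *HTB2* 6 ATGs follow the last base of the upstream cluster, the first at -427 nt from the start codon with an open reading frame of 14 codons, out of frame with the histone. In *HTZ1* 2 ATGs lie inside the cluster itself, the first at -293 nt with 4 codons, so transcripts that start ahead of it carry it and those from the last bases of the cluster do not. In *HTB1* 3 ATGs lie inside the upstream cluster of the *RRP6* experiment, and the first of them is directly followed by the TATA word that lies upstream of the leading cluster. The 30 bases around these ATGs are shown from RefSeq R64 on the strand of the gene, with the ATG in capitals and, where it falls within the stretch, the stop codon of its frame.
HTZ1, chrXV:304257-304286, - strand: ggtttactgaATGcatccatgcTAGattag
HTB2, chrII:236055-236084, + strand: cgtcgcgtttATGgcccccaggttaatgtg
HTB1, chrIV:914835-914864, - strand: tgttttcttgATGtatataaacaacatgat

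The *HTB2* upstream cluster, 455 to 433 nt before the start codon, had 23, 34, 12 and 18 in the *RRP6* experiment and 20, 38, 23 and 29 in the *SET2* experiment. Its *upf1∆* over wild-type log2 ratios were 0.54 and 0.89, where clusters of this level had an SD of 0.42 between the experiments. It made up 0.958% of the gene in wild-type cells of the *RRP6* experiment. The *HTB1* upstream cluster had 171, 171, 148 and 190 in the *RRP6* experiment, where it was 55 nt wide, and 33, 31, 32 and 42 in the *SET2* experiment, where it was 1 nt. Its log2 ratio of *upf1∆* over wild-type was 0.00 and -0.09, although its single position in the second table is followed by 2 ATGs and the first frame ends after 2 codons. Its share of the gene was 7.35% in wild-type and 12.5% in *upf1∆rrp6∆* cells, and 1.22% and 2.40% in wild-type and *upf1∆set2∆* cells.

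Few starts were called inside the histone ORFs. *HTA1* had a sense TSSC of 1 nt at 63 nt after the A of the start codon, with 20, 24, 12 and 14 in the *RRP6* experiment and 19, 23, 18 and 19 in the *SET2* experiment. The next ATG from there is out of frame, with 25 codons. *HHT1* had a sense TSSC at 205 nt, with values from 0 to 5 in all genotypes. All of its positions start a 50-nt stretch that occurs more than once in the genome, so that a read of this length there cannot be assigned to *HHT1* alone. No position of any other histone TSSC was of this kind. Other lengths were not searched, and the study removed a tag from its reads before mapping, so mapped reads can be shorter or longer.

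Antisense TSSCs were called over 2 of the genes. One in the *SET2* experiment, 76 to 98 nt into *HTA1* and 23 nt wide, had 3, 19, 3 and 22, higher in both genotypes without Upf1. The *RRP6* experiment had 3 clusters antisense to the 3′ part and the downstream end of *HHT1*. They had 0 in wild-type cells and 1, 6 and 8 in *upf1∆rrp6∆* cells, with no more than 2 in either single mutant. None of the 3 was called in the *SET2* experiment. At values this low a ratio has little meaning.

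The shared promoters held starts of noncoding transcripts as well, at low values except for one. On the strand opposite to *HTA1*, just at its leading cluster, the TSSC of the XUT XUT_4R-374 had 6, 37, 12 and 44 in the *RRP6* experiment and 3, 23, 4 and 30 in the *SET2* experiment. Upstream of *HHT1* and opposite to it, the TSSC of SUT444 had 5, 29, 5 and 21, then 5, 30, 4 and 25. Both were thus higher in each *upf1∆* genotype of both experiments. CUT073, on the strand of *HTA1*, had 2, 1, 36 and 37 in the *RRP6* experiment, higher in the 2 genotypes without Rrp6. CUT_GIM_0183, on the strand of *HHF2* and upstream of it, had 219, 266, 261 and 257, and 140, 176, 239 and 156, with no such split. In the *SET2* experiment its cluster was called as a single base. SUT442, between *HTA2* and *HTB2*, had 9, 7, 20 and 22, then 7, 7, 6 and 8. An unassigned cluster there had 3, 4, 8 and 15, then 2, 2, 3 and 4. That between *HHT2* and *HHF2* had 17, 43, 9 and 19, then 16, 38, 40 and 46. That between *HTB1* and *HTA1* had 1, 1, 6 and 23 in the *RRP6* experiment.

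The regulators and handlers of histones were counted by their leading mRNA-TSSC. Of 12 regulators of histone genes 11 had one (*HIR3* had none). In *rrp6∆* over wild-type 1 was higher past 1.5-fold (12.0% of all mRNA-TSSCs) and 0 lower (9.85% of all). In *upf1∆rrp6∆* over wild-type 3 were higher (32.3% of all) and 0 lower (8.22% of all). These shares were near those of all mRNA-TSSCs. *SPT10*, the activator whose motif is shown above, had 81, 111, 97 and 184 in the *RRP6* experiment (log2 1.17 for the double mutant over wild-type) and 64, 84, 54 and 74 in the *SET2* experiment. *RTT106*, a histone chaperone that also acts at histone promoters, had log2 ratios of 0.66 in *upf1∆* and 0.80 in *upf1∆rrp6∆* cells, then 0.51 in *upf1∆* and 0.78 in *upf1∆set2∆* cells of the other experiment. In *upf1∆* over wild-type 4 of the 11 were lower in the *SET2* experiment (4.49% of all) and 0 in the *RRP6* experiment (3.69% of all). Of these, *MBP1*, the DNA-binding subunit of MBF, had -0.69 and the chaperone *ASF1* -0.67, and the others had wild-type values under 20. *YTA7* had 0.69 in *upf1∆set2∆* over *upf1∆*.

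Of 16 chaperones and variant exchange factors all had an mRNA-TSSC, and 3 of them were higher past 1.5-fold over wild-type in the *upf1∆* cells of each experiment, a share no larger than that of all mRNA-TSSCs (21.7% and 23.1%). *NAP1*, a chaperone of H2A-H2B, had 2674 in wild-type and 7142 in *upf1∆* cells of the *RRP6* experiment and 2169 and 7064 in the *SET2* experiment, ratios of 1.42 and 1.70. *MSI1*, a subunit of chromatin assembly factor CAF-1, had 1.62 and 1.55, and *VPS75*, a chaperone of H3-H4, had 0.91 and 1.00. No leading cluster of a core histone gene passed 1.5-fold in this comparison. Over wild-type, 7 of 16 were higher in *upf1∆rrp6∆* (32.3% of all) and 5 in *upf1∆set2∆* cells (26.9% of all). *CAC2*, another subunit of CAF-1, had 0.68 and 0.70 and *SCM3*, the chaperone of the centromeric H3 variant, 0.71 and 0.71. *RLF2*, the large CAF-1 subunit, had -0.73 in *upf1∆set2∆* over wild-type. *VPS72*, a subunit of the complex that exchanges H2A for H2A.Z, had 0.72 in *rrp6∆* and 0.62 in *upf1∆rrp6∆* cells, both over wild-type. It had 0.64 in *upf1∆set2∆* over *upf1∆*. *SPT16*, a subunit of the FACT chaperone, had 0.70 in *upf1∆rrp6∆* over *upf1∆*. *PSH1*, a ubiquitin ligase of the centromeric variant, had -0.93 in *upf1∆* over wild-type of the *SET2* experiment, at 21 and 41. In the *RRP6* experiment the same comparison gave -0.17, at 69 and 78. The double mutants over *upf1∆* had 0.68 and 0.90 for this gene.

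Of 8 exosome and polyadenylation cofactors, 7 had an mRNA-TSSC in the *RRP6* experiment. Over wild-type, 3 were higher in *upf1∆rrp6∆* cells (32.3% of all), and *RRP6*, the deleted gene, was lower. *AIR2*, an RNA-binding partner of the Trf4 and Trf5 polymerases, had 1.13, its paralog *AIR1* 0.71 and *DIS3*, the catalytic subunit of the exosome, 0.67. *AIR2* was also higher in *rrp6∆* cells, at 0.67 over wild-type. *TRF5* had 1.08 in *upf1∆rrp6∆* over *upf1∆*. Of the 6 measured in the *SET2* experiment 0 passed 1.5-fold in any comparison. Of all mRNA-TSSCs, 10.7% to 26.9% were higher and 4.49% to 8.78% lower in these comparisons. Of 9 genes of H3K36 methylation and its readers, 0 passed 1.5-fold over wild-type in the *RRP6* experiment. There 12.0% to 32.3% of all were higher and 3.69% to 9.85% lower. The *SET2* experiment had 3 that were lower in *set2∆* cells (5.13% of all). They were *SET2* itself (-2.55), *RCO1* (-0.67), a subunit of the deacetylase complex that reads this mark, and *CHD1*, at values of 2 and 1, too low for a ratio. *ISW1*, a chromatin remodeler, had -0.72 in *upf1∆* over wild-type of the *SET2* experiment and -0.27 in that of the *RRP6* experiment.

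Over the 6 ratios to wild-type, the genes most like the mean of the 8 core genes were sought among 2829 other genes with a wild-type value of at least 100 in both tables. The nearest by Euclidean distance were *SAM1* (0.18), *RPS16A* (0.19), *CYS3* (0.20), *YPR1* (0.21) and *OST3* (0.22). The core genes themselves lay between 0.34 (*HTB1*) and 1.07 (*HTA2*) from their own mean, farther than these 5, which were picked for their small distance. How many of the 2829 genes lay within the range of the core genes was not counted. *HHO1* lay at 0.32 and *HTZ1* at 0.58.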

How the data were processed

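Members and gene lists were chosen with earlier results of these data known. The authors removed duplicate reads by a random tag, aligned with Bowtie2 to the R64 genome (build and tool per the labels), grouped 5′-ends into TSSCs, filtered these on the TAP signal and on the bases at the start, and classed them by annotation. The score values used here, as deposited by the authors, are whole numbers of reads per TSSC, normalised with DESeq2 size factors from reads just upstream of start codons and pooled into 1 value per genotype. This scaling cannot show a difference shared by most mRNAs. That this is the mean of 3 libraries was inferred. Depth per library is therefore not in the tables. Over all TSSCs the values summed to between 3914205 and 4985459 per genotype. The tables also hold the authors' own fold changes with their tests, which were not used. The number of other value columns left out was 0. The 8 TAP and 8 RNAseq libraries were not analysed here.

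Ratios are log2 of values with a pseudocount of 1, and past 1.5-fold counts as higher or lower. A gene's leading TSSC is its mRNA-TSSC with the highest wild-type value. All TSSCs of the 10 genes are given. From the lists, genes past 1.5-fold in any comparison with a wild-type value of at least 20 are named. The error came from pairs of TSSCs, one of each experiment, that shared 1 nt or more on a strand and were each the highest partner of the other. Alternatives were a pseudocount of 0.1, a fold of 2, a minimum mean of 10, a median shift, and leading or summed clusters. Sequences came from RefSeq R64. Python 3.11.15, numpy 2.4.6 and pandas 2.3.3 were used.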

Additional observations from a re-analysis of the deposited data

How the results depend on the processing

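No paired analysis was possible because the values are pooled over replicates, and leaving out a replicate was not run for the same reason. With a fold of 2, 0 histone mRNA-TSSCs were counted in each comparison where the main count was above 0, in both directions. With leading clusters only, each count of higher clusters was 0 except that of *upf1∆rrp6∆* over *upf1∆*, which stayed at 1. With the median of all mRNA-TSSCs at 0, the core medians were -0.91 (*upf1∆rrp6∆* over wild-type), -0.44 (over *rrp6∆*), -0.80 (over *upf1∆*) and -0.55 (*upf1∆set2∆* over wild-type). The counts of lower clusters were then 1 for *upf1∆rrp6∆* over *rrp6∆*, 5 for *upf1∆set2∆* over wild-type and 4 over *set2∆*, and those of higher clusters were 0 for *upf1∆rrp6∆* over *rrp6∆* and over *upf1∆*. An alternative chosen after seeing the data set the median of mRNA-TSSCs with a wild-type value of at least 500 to 0. The core medians were then -0.19 for *rrp6∆* and -0.49 for *upf1∆rrp6∆* over wild-type, and -0.26 for *upf1∆set2∆* over *set2∆*. Lower clusters were then 1 for *rrp6∆* over wild-type, 1 for *upf1∆set2∆* over *set2∆* and 1 over *upf1∆*, and higher ones 2 for *upf1∆* over wild-type in the *RRP6* experiment. The share of all mRNA-TSSCs past the limit was not recomputed under these alternatives, so these counts have no background beside them. Why the values moved was not tested, beyond what a scaling or a stricter fold does by construction. The remaining 125 summary values stayed within 1.5 times the count or 1 SD (0.13) of the median. Of the values of single genes 324 stayed within 1 SD, 76 moved further, and none past 1.5-fold changed sign. Ratios nearer to 0 did change sign, such as *HTA2* in *upf1∆rrp6∆* over wild-type (-0.04 with the median of all at 0). The depth of single libraries limits the values under 50 most.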
